A study of Arabidopsis thaliana with 21 samples.

Results

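In dry Arabidopsis seeds 56 mRNAs were abundant that were scarce after 6 h in water, higher again after 24 h in water and low after 24 h with ethylene. They were chosen on counts per 1000000 gene reads (CPM), averaged over the 3 libraries of each group. A member had at least 20 CPM in dry seeds, at most 1/4 of that level after 6 h in water, at least 4 times its 6 h level after 24 h in water, and at most 1/4 of its 24 h water level after 24 h with ethylene. Of 37336 genes, 5246 reached the dry minimum, 399 of those were low at 6 h in water, 78 of those were regained at 24 h, and 57 of those were low with ethylene, of which 56 are described. Levels in dry seeds, at 6 and 24 h in water and at 24 h with ethylene therefore chose the members and are given as description, with no test. Water at 16 h and ethylene at 6 and 16 h were not used.

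The study measured RNA in wild-type Arabidopsis thaliana seeds, dry or imbibed in water or with ethylene for 6, 16 or 24 h, in 7 groups of 3 libraries. The labels give the water samples as untreated, name no accession line, ethylene dose or dormancy state, and describe no pooling. Replicates are named biological in the design text, with no word on whether each had its own batch of seeds; p-values thus measure how these samples vary, and that variation may be technical. Libraries held 11687098 to 21198649 gene reads.

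Late in maturation, abscisic acid loads the seed with mRNAs for late embryogenesis abundant (LEA) proteins, which protect cells while they dry, for antioxidant enzymes and for raffinose family sugars. These stored mRNAs are mostly degraded on imbibition. A dormant seed keeps or restores abscisic acid signalling in water, and ethylene is known in many species to promote germination and to counteract abscisic acid. Factors of the ABI5 type, which act in abscisic acid responses, bind the abscisic acid response element (ABRE), whose core is ACGTG.

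One library stood apart. The library labelled ethylene 16 h replicate 2 correlated at 0.994 to 0.995 with the water 16 h libraries (log2 values across genes), against 0.899 to 0.904 for the remaining libraries of its own group. In the 56 members its level had a median of 98.0% of the water 16 h mean (range 61.3 to 119%), and in 41 of them it lay within the range of the 3 water 16 h libraries. Counts of calls are given with and without it, also at 6 h, because 1 estimate of spread serves all groups. Fold changes of single genes are without it unless stated, and with it only 7 members, named with that comparison, were called at 16 h against water.

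Seed markers were detected in every group. The 8 of them, genes of storage proteins and of oleosins, summed to 57941 to 59975 CPM in dry seeds and 371 to 519.7 CPM after 24 h with ethylene, where none was at 0. At 16 h they summed to 27879 to 33821 CPM in water and, with ethylene, to 3574 CPM in the lowest library and 30602 CPM in replicate 2. In bulk samples, fewer cells of a type and less RNA per cell cannot be told apart.

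The stretch of 300 bases before the gene start is printed for 4 members that fell from 6 to 16 h with ethylene and hold the ABRE core, and for 1 member that rose and holds none, all without the library that stood apart. They are examples and do not show a rule: the core was in 31 of the 42 members that fell and in 4 of the 9 that rose. Sequences are from the RefSeq genome TAIR10.1, 5′ to 3′ on the strand of the gene. They lie at chr5:21236721-21237020 on the plus strand (LTI65), chr2:14863413-14863712 on the minus strand (LEA18), chr1:17780129-17780428 on the plus strand (PER1), chr1:21207237-21207536 on the plus strand (GolS2) and chr5:2166820-2167119 on the plus strand (AT5G06980), and no other annotated gene reaches into them. Capitals mark ACGTG or its reverse complement CACGT, which overlap in the G-box CACGTG. The lines for LTI65 and LEA18 hold 4 matches each, those for PER1 and GolS2 hold 2 that form a single G-box, and the line for AT5G06980 holds 0.
LTI65: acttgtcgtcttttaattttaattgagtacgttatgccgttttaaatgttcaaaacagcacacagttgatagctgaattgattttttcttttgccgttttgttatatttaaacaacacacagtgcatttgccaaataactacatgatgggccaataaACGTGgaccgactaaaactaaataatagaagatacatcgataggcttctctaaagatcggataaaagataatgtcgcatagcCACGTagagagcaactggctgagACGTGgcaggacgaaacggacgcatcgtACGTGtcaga
LEA18: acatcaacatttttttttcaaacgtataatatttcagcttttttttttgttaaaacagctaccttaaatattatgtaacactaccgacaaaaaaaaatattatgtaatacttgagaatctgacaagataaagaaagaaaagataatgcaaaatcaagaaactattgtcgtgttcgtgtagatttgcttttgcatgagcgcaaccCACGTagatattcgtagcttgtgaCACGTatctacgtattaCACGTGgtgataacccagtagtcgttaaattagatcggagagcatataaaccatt
PER1: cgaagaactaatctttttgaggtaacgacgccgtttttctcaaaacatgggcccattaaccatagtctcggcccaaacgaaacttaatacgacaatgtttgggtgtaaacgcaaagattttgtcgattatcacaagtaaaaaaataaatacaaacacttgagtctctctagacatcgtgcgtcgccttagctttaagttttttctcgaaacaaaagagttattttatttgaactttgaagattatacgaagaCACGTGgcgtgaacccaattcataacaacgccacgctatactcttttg
GolS2: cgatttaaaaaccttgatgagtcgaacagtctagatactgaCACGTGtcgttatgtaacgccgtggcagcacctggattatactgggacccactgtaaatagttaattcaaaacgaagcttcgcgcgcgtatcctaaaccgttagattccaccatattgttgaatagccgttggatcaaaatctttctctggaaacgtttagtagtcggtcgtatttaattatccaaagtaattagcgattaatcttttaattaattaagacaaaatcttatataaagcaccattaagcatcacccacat
AT5G06980: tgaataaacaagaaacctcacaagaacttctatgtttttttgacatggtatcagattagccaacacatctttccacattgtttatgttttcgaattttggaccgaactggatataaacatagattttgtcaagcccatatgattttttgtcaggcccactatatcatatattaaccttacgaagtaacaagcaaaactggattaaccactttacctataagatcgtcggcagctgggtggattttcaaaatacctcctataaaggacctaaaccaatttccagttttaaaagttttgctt

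Together the members held 3.78 ± 0.0844% of all gene reads in dry seeds (SD, n = 3) and 0.273 ± 0.00591% after 6 h in water. Their share was 1.40 ± 0.102% after 16 h and 1.55 ± 0.0414% after 24 h in water. With ethylene it was 0.197 ± 0.00637% at 6 h and 0.0237 ± 0.00278% at 24 h. The water libraries at 16 and 24 h thus stood above all libraries at 6 h, while the ethylene libraries at 24 h stood below all others. At 16 h with ethylene, replicates 1 and 3 had 0.0951 and 0.0838%, and replicate 2 had 1.37%, inside the range of the water 16 h libraries.

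**Figure D1:**
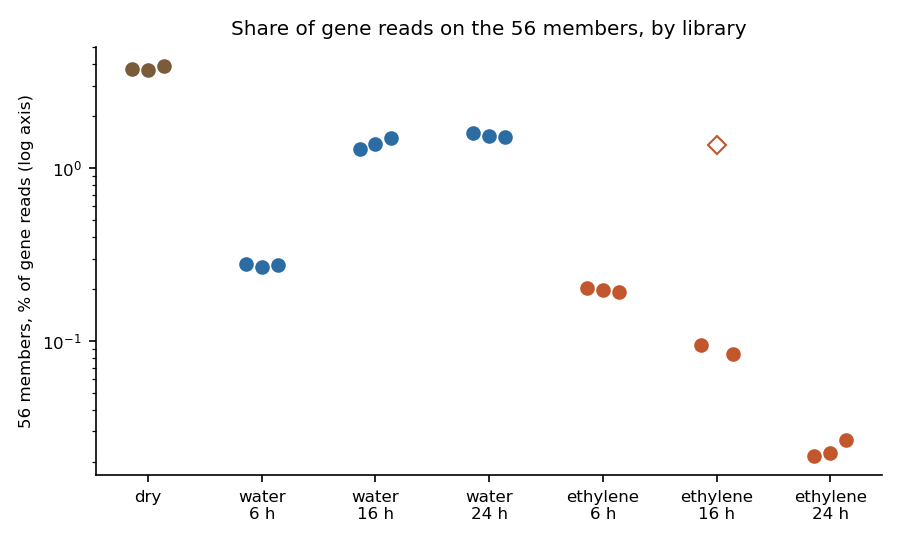
Share of gene reads on the 56 members in each of the 21 libraries (log axis); the open diamond is the library labelled ethylene 16 h replicate 2. The water libraries climb back from 0.273% at 6 h to 1.55% at 24 h on average, while ethylene replicates 1 and 3 at 16 h lie at 0.0951 and 0.0838% and the diamond lies among the water 16 h libraries.

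The loss in water was deep in most members and the return was partial. Dry seeds had a median of 13.5 times the 6 h water level (range 4.39 to 158 times), and 24 h in water brought a median of 6.09 times the 6 h level (4.04 to 36.3 times). At 24 h the members stood at a median of 52.8% of their dry level (3.67 to 646%): 30 had at least 50% of it, 6 were above it and 5 were under 10%. Those above dry were AT5G06980, ASG4, ATS3, SCPL19, AT4G36700 and AT5G44360. Those under 10% were SWEET6, HAI1, GolS2, AT3G48510 and AT5G53260. The step from dry to imbibed seeds depends on scaling. Over all 21 libraries, TMM factors were 0.498 to 0.525 in dry seeds, 1.03 to 1.04 at 6 h and 1.05 to 1.06 at 24 h in water. On the TMM scale dry levels are thus higher relative to water than the CPM given here, and 98 genes met the same limits there. Shares of the dry level at 24 h are lower on that scale, so the median, the counts and the genes named above dry hold for CPM only.

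Water at 16 h, which the rule did not use, already showed the return. All 3 libraries at 16 h were above all 3 at 6 h in 56 of 56 members, where 42.3% of all genes tested did so, and the 16 h mean was a median of 5.43 times the 6 h mean (2.53 to 25.5 times). The 6 h libraries had been chosen low, so this is a description. Between 16 and 24 h the members parted: 31 had all 24 h libraries above all 16 h libraries (26.1% of all genes did), and 10 had them all below (27.2% of all genes did). The 24 h water libraries had been chosen high by the rule, so these counts too are a description. AT5G66580, an uncharacterized protein gene, was highest at 16 h relative to 24 h, with 129.9, 131 and 130.2 CPM at 16 h and 82.7, 66.1 and 59.9 CPM at 24 h. ATS3, a seed gene annotated as embryo-specific protein 3, had 46.4, 50.7 and 59.7 CPM at 16 h against 36, 30.5 and 31.6 CPM at 24 h. At the other end AT3G07255, annotated as a nuclear transport factor 2 or RNA recognition motif protein, had 2.95, 3.53 and 2.59 CPM at 16 h and 6.42, 7.13 and 5.47 CPM at 24 h. In all 3 genes the 2 times did not overlap, in opposite directions.

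**Figure D2:**
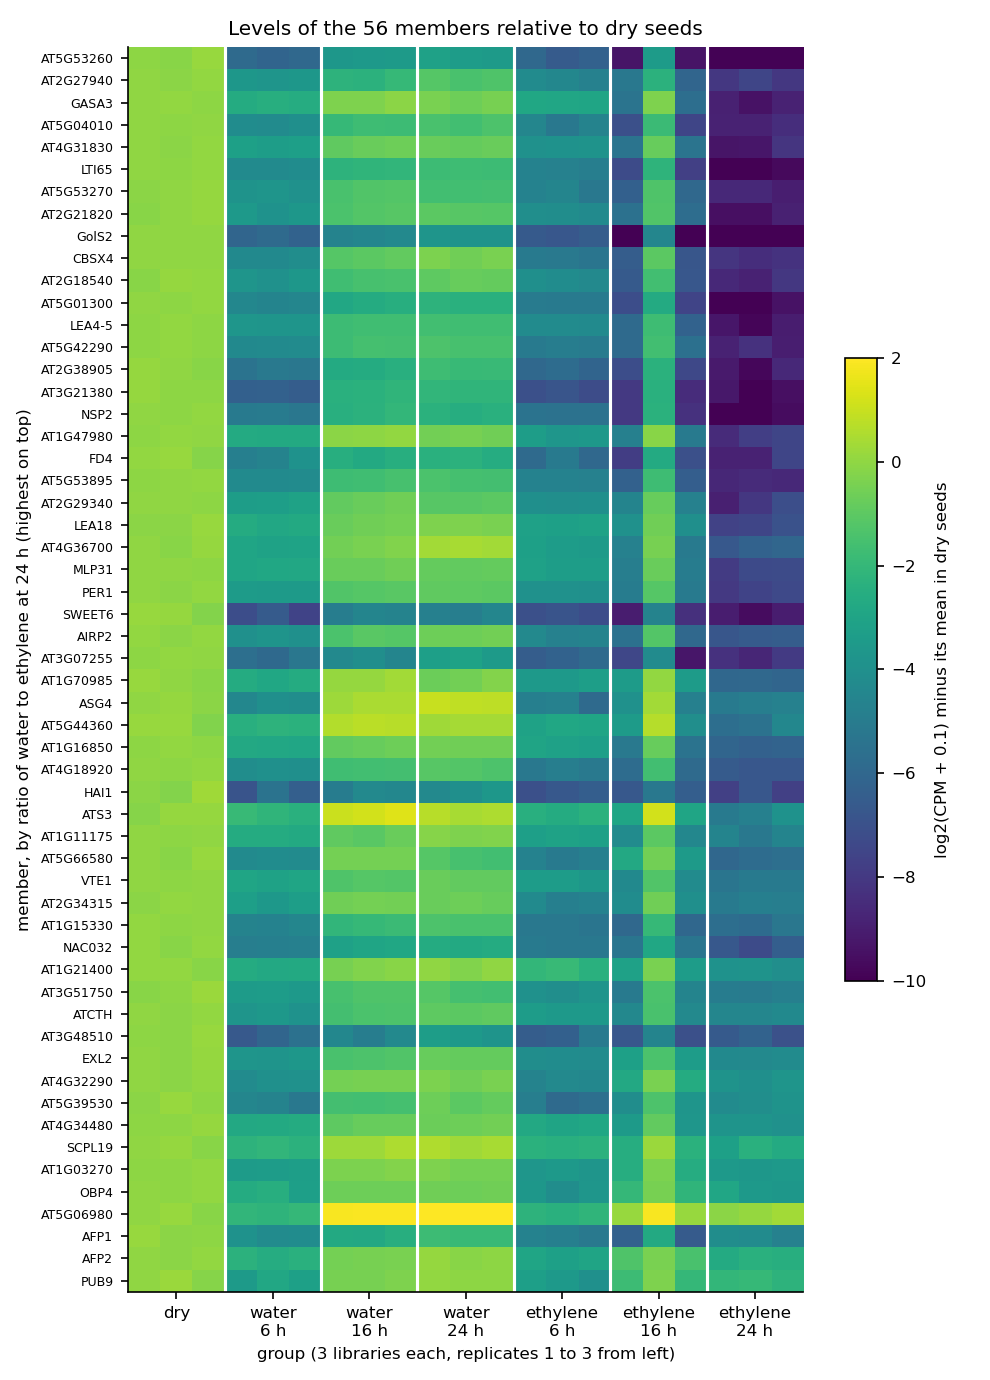
Level of each member (rows, ordered by the ratio of water to ethylene at 24 h) in each of the 21 libraries (columns, 3 per group), as log2(CPM + 0.1) minus its mean in dry seeds; colours stop at -10 and 2. The water 16 and 24 h columns are on average higher than water 6 h in all 56 rows, the middle ethylene 16 h column looks like water 16 h, and ethylene 24 h is lowest in the upper rows.

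The comparison of ethylene with water at 16 h used no library of the rule. With all 18 imbibed libraries, 7 of 56 members were lower (18.5% of 18806 genes tested were) and 0 were higher (31.7% of genes were; 0 at an unadjusted p and 0 by DESeq2) by edgeR's quasi-likelihood test at a Benjamini-Hochberg adjusted p under 0.05, and 21 were lower at an unadjusted p under 0.05. The 7 were HAI1, AT1G21400, SCPL19, AT1G03270, EXL2, AT5G06980 and AFP2. Without the library that resembles water, all 56 were lower, where 32.7% of 19091 genes were, and 42.0% of genes were higher. Over the members the median log2 fold change was -4.41 (range -7.37 to -1.11) without it and -1.48 with it, against 0.11 and 0.08 over all genes. The biological coefficient of variation was 0.187 with the library and 0.0436 without it. Scaling by TMM moved the median of all genes by -0.12 on the log2 scale relative to library size.

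**Figure D3:**
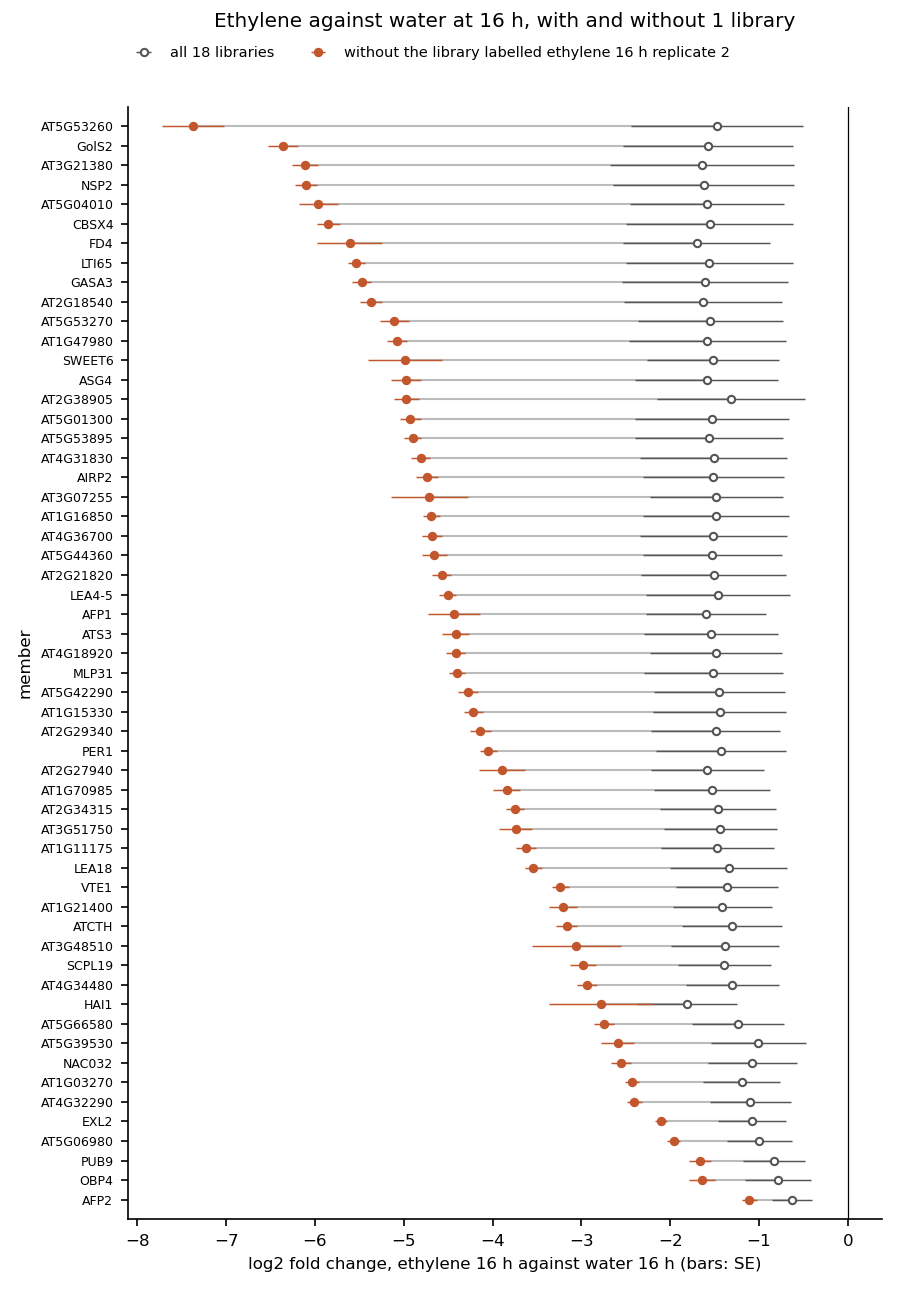
Log2 fold change of ethylene against water at 16 h for the 56 members, with all 18 libraries (open, grey) and with replicate 2 of ethylene 16 h left out (filled, orange); bars are SE. All 56 values are below 0 in both fits, from -7.37 to -1.11 without the library.

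Between 6 and 16 h with ethylene the members took 2 courses when the library that resembles water was left out. Then 42 of 56 fell (38.5% of genes tested did), 9 rose (43.0% did) and 5 passed neither way. With all libraries 0 were lower by edgeR's test, 0 at an unadjusted p under 0.05 and 0 by DESeq2 (30.5% of genes were lower) and 18 were higher (38.3% were), so the direction of this comparison rests on that library. Its median log2 fold change over the members was -1.39 without the library and 1.40 with it, and over all genes 0.08 and 0.11. The 9 that rose were AT5G06980, OBP4, AT4G32290, AT5G66580, PUB9, AFP2, AT5G39530, AT1G03270 and EXL2, and each was also called higher with all libraries. A return in water alone therefore does not describe these 9, which rose again with ethylene by 16 h, to a lower level than in water.

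At 6 h, differences between ethylene and water were small. Without the library labelled ethylene 16 h replicate 2, 41 members were lower with ethylene than in water (4.94% of genes tested were) and 1 was higher (4.75% were). With all 18 libraries 0 were lower by edgeR's quasi-likelihood test (0.362% of genes were), 2 were at an unadjusted p under 0.05, and DESeq2 also called 0. The members' median log2 fold change was -0.54 in both fits, and only 5 were lower by 2 times or more among those called. The 6 h water libraries entered the rule, so neither this comparison nor the next is independent of it.

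Without the same library, the difference between ethylene and water was larger at 16 h than at 6 h in nearly all members. The change of the ethylene effect from 6 to 16 h was negative and called in 54 members without that library (28.3% of genes tested were called so), with a median of -3.69 on the log2 scale, and in 0 with all libraries (0.191% of genes were), where 1 member passed an unadjusted p under 0.05, DESeq2 called 0 and the median was -0.87. HAI1 and OBP4 were the members not called.

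Of the named LEA protein genes, LTI65, LEA18 and LEA4-5 were members. LTI65 (AT5G52300), also known as RD29B, is a classic abscisic acid and drought marker. It had 1719.5, 1644 and 1776 CPM in dry seeds, 90.6, 89 and 94.2 CPM at 6 h, 366, 389.6 and 404 CPM at 16 h and 506, 517 and 497 CPM at 24 h in water. With ethylene it had 66.6, 64.7 and 58.7 CPM at 6 h, 11.1 and 7.87 CPM in replicates 1 and 3 at 16 h, 379 CPM in replicate 2, and 1.37, 1.4 and 1.96 CPM at 24 h. No ethylene library other than replicate 2 at 16 h reached the lowest water library. At 16 h ethylene against water gave log2 fold change -5.53, SE 0.10, Benjamini-Hochberg adjusted p = 1.1e-26 by edgeR's quasi-likelihood test without that library, and log2 fold change -1.56, SE 0.94, Benjamini-Hochberg adjusted p = 0.17 by edgeR's quasi-likelihood test with it. From 6 to 16 h with ethylene it fell 7.74-fold without that library, and with it the log2 fold change was 1.02 and not called.

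LEA18 and LEA4-5 (AT2G35300 and AT5G06760) are both annotated as LEA proteins. LEA18 had 2512, 2512 and 2954 CPM in dry seeds and 427, 379.6 and 410.4 CPM, 1597, 1752 and 1874 CPM and 2142, 2109 and 1984 CPM at 6, 16 and 24 h in water. Under ethylene the libraries had 305, 297 and 309 CPM at 6 h, 174 and 165 CPM in replicates 1 and 3 at 16 h (1768 CPM in replicate 2) and 13.2, 14.7 and 20.7 CPM at 24 h. It thus kept to the water course in replicate 2 and lay far below it in the others. LEA4-5 went from 4833, 5176 and 4917 CPM in dry seeds to 386, 374 and 377 CPM at 6 h, 1452, 1531 and 1578 CPM at 16 h and 1609, 1549.6 and 1548 CPM at 24 h in water. With ethylene at 16 h it had 86 and 65.9 CPM in replicates 1 and 3 and 1523 CPM in replicate 2. Without replicate 2 the log2 fold changes against water at 16 h were -3.54 and -4.51, both called by edgeR's quasi-likelihood test.

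Levels can be set side by side between genes per kilobase of transcript. At 24 h in water LEA18 had 3278 CPM per kilobase, PER1 had 2544 and AT2G21820, a seed maturation protein gene, had 2109. LEA4-5 followed with 1737. In dry seeds LEA4-5 led with 5509 CPM per kilobase.

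PER1 (AT1G48130) encodes the seed 1-cysteine peroxiredoxin, an antioxidant that accumulates in the embryo and aleurone of dry and dormant seeds. It had 2769, 2680.0 and 2635 CPM at 24 h in water, after 5353, 5115 and 5624 CPM in dry seeds, 496, 487 and 485 CPM at 6 h and 2233, 2373 and 2528 CPM at 16 h. With ethylene it had 357, 353 and 338 CPM at 6 h, 173 and 154 CPM in replicates 1 and 3 at 16 h, 2369 CPM in replicate 2 and 20.9, 27.6 and 32.7 CPM at 24 h. Water and ethylene libraries did not overlap at any time, replicate 2 at 16 h aside. At 16 h the comparison with water gave log2 fold change -4.05, SE 0.10, Benjamini-Hochberg adjusted p = 7.5e-24 by edgeR's quasi-likelihood test without replicate 2, and -1.43, not called, with it. VTE1, tocopherol cyclase of vitamin E synthesis, had a log2 fold change of -3.24 without replicate 2 and of -1.36, not called, with it.

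AT5G53260, AT5G53270 and AT2G21820 are annotated as seed maturation proteins. The first 2 are neighbours on chromosome 5, and AT5G53260 had the most negative fold change of the 56 members at 16 h. It had 7.73, 8.14 and 8.82 CPM at 16 h in water against 0.0508 and 0.0477 CPM in ethylene replicates 1 and 3, which is 1 read in each, and 9.12 CPM in replicate 2. The ratio of water to replicates 1 and 3 was 168 (95% exact counting interval 46.2 to 1389). At 24 h it had 478 reads over the 3 water libraries and 0 over the 3 ethylene libraries, so water was at least 196.3-fold higher taking 3 counts over the group as the floor. AT5G53270 had 28, 31.7 and 32.6 CPM at 16 h in water and 0.864 and 1.14 CPM in ethylene replicates 1 and 3. AT2G21820 had 967, 1087 and 1180.5 CPM in water and 55.1 and 47.7 CPM in the same replicates. In all 3 genes those replicates lay below every water library at 16 h.

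GolS2 (AT1G56600) encodes galactinol synthase, the first step to raffinose family sugars. It was among the members lost most: 1355, 1321 and 1324 CPM in dry seeds, 19.8, 22.8 and 17.5 CPM at 6 h in water, 53.2, 60 and 65.1 CPM at 16 h and 101, 94.2 and 94.2 CPM at 24 h. In the ethylene libraries it had 13.7, 12.4 and 15.2 CPM at 6 h, 0.763 and 0.858 CPM in replicates 1 and 3 at 16 h, 59.3 CPM in replicate 2 and 0.425, 0.386 and 0.201 CPM at 24 h. It regained little of its dry level in water, and in replicates 1 and 3 it was under 1 CPM at 16 h. Against water at 16 h it gave log2 fold change -6.36, SE 0.17, Benjamini-Hochberg adjusted p = 3.8e-23 by edgeR's quasi-likelihood test without replicate 2, and -1.57, not called, with it. Its change of the ethylene effect from 6 to 16 h was -5.81 on the log2 scale without replicate 2 and -1.02, not called, with it.

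NSP2 (AT2G33070) encodes nitrile specifier protein 2, which directs the breakdown of glucosinolates, defence compounds of this family of plants, to nitriles. It had 4508, 4421 and 4645 CPM in dry seeds and 852, 920.2 and 1089 CPM at 16 h in water, against 17.3 and 14.3 CPM with ethylene in replicates 1 and 3 and 905 CPM in replicate 2. AT3G21380, a mannose-binding lectin gene, had 43.3, 44.5 and 38.9 CPM at 6 h and 656, 691 and 779 CPM at 16 h in water. With ethylene it stood at 25.5, 30.6 and 23.4 CPM at 6 h and 13.5 and 9.78 CPM in replicates 1 and 3 at 16 h. Both were lower with ethylene than in water at 16 h, by 68.6-fold and 69.3-fold without replicate 2. With it their log2 fold changes were -1.62 and -1.64, neither called. MLP31, a major latex protein family member, and the cupins AT4G36700 and AT2G18540, of the fold that storage globulins share, were lower without replicate 2 by 21.1-fold, 25.6-fold and 41.3-fold.

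GASA3 (AT4G09600) belongs to the GASA family of small cysteine-rich peptides, named for gibberellin-responsive GAST1 of tomato. In water it went from 130.2, 141 and 132 CPM at 6 h to 633, 642 and 762 CPM at 16 h, with 795, 830.2 and 775 CPM in dry seeds. Ethylene libraries had 109, 106 and 105 CPM at 6 h, 18.9 and 15.8 CPM in replicates 1 and 3 at 16 h, 639.8 CPM in replicate 2 and 1.56, 1.06 and 1.61 CPM at 24 h. From 6 to 16 h with ethylene it fell 7.11-fold (log2 fold change -2.83, SE 0.10, Benjamini-Hochberg adjusted p = 3.2e-20 by edgeR's quasi-likelihood test) without replicate 2, and with it the log2 fold change was 1.03 and not called.

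Members that act in abscisic acid signalling were few, and they went 2 ways. AFP1 and AFP2 (AT1G69260 and AT1G13740) bind ABI5 and dampen abscisic acid responses. AFP1 had 1.75, 1.42 and 1.46 CPM at 6 h, 4.15, 3.96 and 4.86 CPM at 16 h and 7.87, 7.23 and 7.22 CPM at 24 h in water. With ethylene it had 0.969, 0.892 and 0.688 CPM at 6 h, 0.254 and 0.191 CPM in replicates 1 and 3 at 16 h and 1.51, 1.4 and 0.955 CPM at 24 h. It was thus lowest in those replicates at 16 h, and fell from 6 to 16 h there (log2 fold change -2.11, SE 0.40, Benjamini-Hochberg adjusted p = 2.8e-05 by edgeR's quasi-likelihood test, without replicate 2; 0.72 and not called with it). That fall rests on few reads, 18, 17 and 14 at 6 h and 5 and 4 in replicates 1 and 3 at 16 h.

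AFP2 took the other way. It had 11.1, 9.29 and 10.5 CPM at 6 h, 38.8, 40.4 and 41.1 CPM at 16 h and 58.9, 49.7 and 52.7 CPM at 24 h in water, with 55.5, 51.8 and 57.4 CPM in dry seeds. Under ethylene it had 7.0, 5.88 and 6.83 CPM at 6 h, 22.1 and 20.1 CPM in replicates 1 and 3 at 16 h, 41 CPM in replicate 2 and 8.5, 10.4 and 9.65 CPM at 24 h. All 3 libraries at 16 h were above all at 6 h, and all at 24 h lay between them. The rise from 6 to 16 h with ethylene was 2.77-fold without replicate 2 (log2 fold change 1.47, SE 0.11, Benjamini-Hochberg adjusted p = 2.7e-13 by edgeR's quasi-likelihood test) and was called with all libraries as well. AFP2 also had the smallest difference from water at 16 h of all members, 2.16-fold without replicate 2. An annotated long noncoding RNA, AT1G05033, overlaps it on the opposite strand by 494 bases, and counting used strand.

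HAI1 (AT5G59220) encodes a clade A protein phosphatase 2C, a negative regulator of abscisic acid signalling that is itself induced by the hormone. It was near the limit of detection in every imbibed group: 19.9, 18.1 and 25.3 CPM in dry seeds, but 0.0762, 0.391 and 0.156 CPM at 6 h and 0.941, 1.21 and 1.6 CPM at 24 h in water. With ethylene it had 2 reads over the 3 libraries at 24 h, and the ratio of water to ethylene was 40.0 (95% exact counting interval 10.6 to 337.6). At 16 h it was called lower in both fits, log2 fold change -1.81, SE 0.56, Benjamini-Hochberg adjusted p = 0.021 by edgeR's quasi-likelihood test with all libraries and -2.78 without replicate 2. AIRP2, a RING ubiquitin ligase that promotes abscisic acid responses, had 54.7, 67 and 62.6 CPM at 16 h in water and 3.0 and 2.24 CPM with ethylene in replicates 1 and 3. Intervals and floors cover counting error only.

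AT5G06980 had the highest level at 24 h in water relative to dry seeds of the 56 members. It is annotated as an uncharacterized protein gene and also known as LNK4, night light-inducible and clock-regulated 4. It was above its dry level in water: 21.5, 24.3 and 19.4 CPM in dry seeds, 5.03, 4.6 and 5.25 CPM at 6 h, 79.9, 83 and 81.5 CPM at 16 h and 139, 141 and 141 CPM at 24 h. Under ethylene the libraries had 4.47, 4.09 and 4.87 CPM at 6 h, 23.8 and 23.7 CPM in replicates 1 and 3 at 16 h, 81.2 CPM in replicate 2 and 20.6, 23.1 and 27.4 CPM at 24 h, which is 109% of its dry level on average. Replicates 1 and 3 at 16 h and the libraries at 24 h overlapped the dry libraries in CPM, and all were above the ethylene libraries at 6 h. The overlap with dry seeds depends on scaling. Over all 21 libraries, TMM factors were 0.498 to 0.525 in dry seeds and 1.33 to 1.36 at 24 h with ethylene. On the TMM scale its dry level is thus higher relative to ethylene than these CPM show. Its rise from 6 to 16 h gave log2 fold change 2.19, SE 0.11, Benjamini-Hochberg adjusted p = 5.3e-17 by edgeR's quasi-likelihood test without replicate 2. It was still 3.89-fold lower than in water at 16 h without replicate 2.

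Other members that rose with ethylene had varied roles. EXL2, an EXORDIUM-like protein, had 49.8, 47.3 and 46.6 CPM at 6 h, 93.9 and 82.7 CPM in replicates 1 and 3 at 16 h and 42.8, 42.1 and 46.4 CPM at 24 h. OBP4, a Dof zinc finger transcription factor, had 1.61, 1.15 and 1.57 CPM at 6 h and 5.29 and 4.82 CPM in replicates 1 and 3 at 16 h. PUB9, a U-box ubiquitin ligase, had 2.8, 2.26 and 1.67 CPM at 6 h and 8.03 and 6.82 CPM at 16 h. All 3 were higher at 16 than at 6 h in these libraries and were below every water 16 h library. EXL2 and AT4G32290, annotated as a glycosyltransferase, rose 1.59-fold and 2.99-fold without replicate 2.

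**Figure D4:**
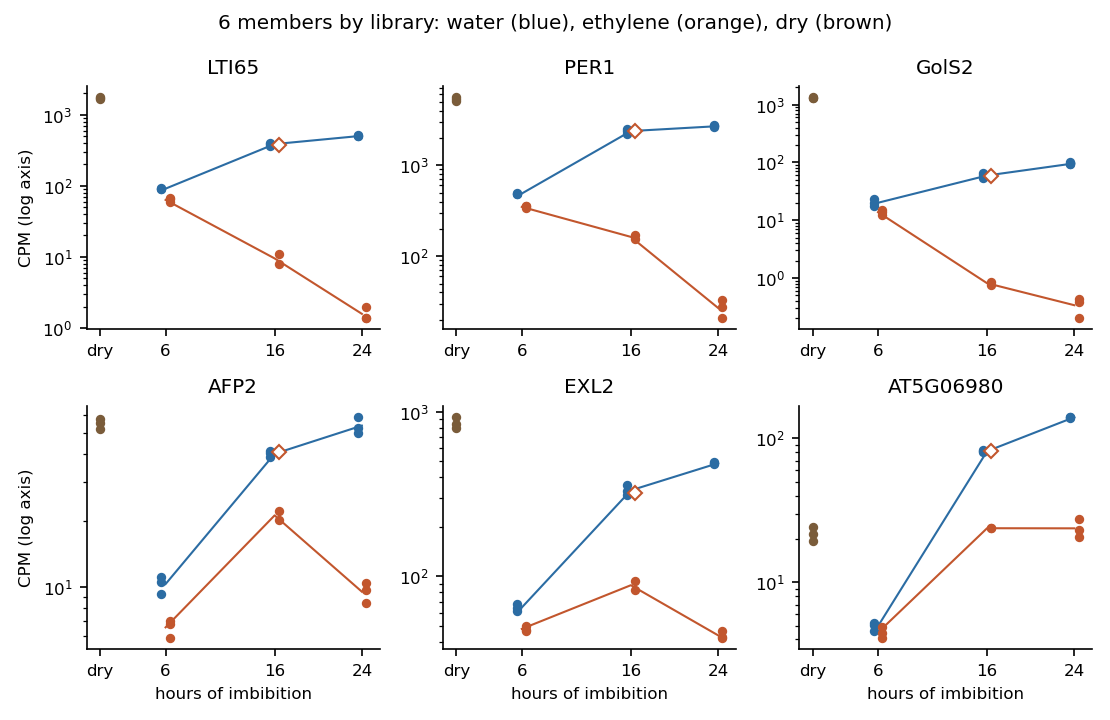
CPM of 6 members in every library by hours of imbibition (log axis); lines join group means, the ethylene 16 h mean being that of replicates 1 and 3, and the open diamond is replicate 2. LTI65, PER1 and GolS2 decline with ethylene from 6 to 16 to 24 h, whereas AFP2 and EXL2 are highest with ethylene at 16 h. AT5G06980 stays near its dry CPM with ethylene from 16 h on, which depends on the scaling of dry against imbibed seeds.

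Further transcription and signalling members followed the larger group or were not called between 6 and 16 h. NAC032, a stress-responsive NAC factor, had 35.9, 40.7 and 44.1 CPM at 16 h in water and 7.73 and 7.82 CPM with ethylene in replicates 1 and 3. ASG4, a homeodomain-like protein named for altered seed germination, had 29.5, 34.7 and 34.8 CPM at 16 h in water and 1.58 and 0.811 CPM in the same ethylene replicates. ATCTH, a tandem zinc finger protein, had 21.3, 24.3 and 25.8 CPM and 2.95 and 3.05 CPM. Without replicate 2 the water level was higher in all 3 genes, by 5.88-fold, 31.5-fold and 8.98-fold. ASG4 was not called between 6 and 16 h with ethylene, where its log2 fold change was 0.63 (adjusted p = 0.097, edgeR's quasi-likelihood test with Benjamini-Hochberg adjustment, without replicate 2). CBSX4, a CBS domain protein, and the sugar transporter SWEET6 fell between those times without replicate 2, by 3.23-fold and 5.55-fold. With it CBSX4 was called higher at 16 h, by 6.07-fold, and SWEET6 was not called.

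At 6 h the largest called decreases with ethylene were in FD4, a ferredoxin, AT2G34315, annotated as an avirulence induced family protein, OBP4 and AT4G18920. FD4 had 1.52, 1.76 and 2.96 CPM in water and 0.70, 1.26 and 0.639 CPM with ethylene at 6 h. AT2G34315 had 9.67, 7.48 and 9.2 CPM and 4.68, 3.1 and 3.44 CPM. The 2 groups did not overlap in either gene. Their log2 fold changes without replicate 2 of ethylene 16 h were -1.31 and -1.23, and neither was called with all libraries. The member that was higher with ethylene at 6 h was AT1G21400, a thiamin diphosphate-binding family gene, with 3.5, 3.18 and 3.27 CPM in water and 5.17, 5.77 and 4.13 CPM with ethylene (log2 fold change 0.59, SE 0.16, Benjamini-Hochberg adjusted p = 0.013 by edgeR's quasi-likelihood test, without replicate 2). By 16 h it too was lower with ethylene.

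Beside the members stood 21 genes that were lost and regained in water but kept more than 1/4 of the water level with ethylene at 24 h, and 321 that were lost and not regained 4 times. Without replicate 2, ethylene 16 h against ethylene 6 h called 1 of the 21 lower and 18 higher (median log2 fold change 1.17). It called 274 of the 321 lower and 29 higher (median -2.03), and 38.5% of all genes lower and 43.0% higher. With replicate 2, 0 of the 21 were lower and 19 higher, and 87 of the 321 were lower and 34 higher (30.5% and 38.3% of all genes were). Against water at 16 h, 17 of the 21 and 284 of the 321 were lower without replicate 2 (32.7% of all genes were). The medians were -1.40 and -2.64 against -4.41 in the members. With replicate 2, 11 and 123 were lower (18.5% of all genes were). The 21 were split from the members on ethylene at 24 h and the 321 on their return in water, so no test of these differences is given.

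Of 21 named LEA protein genes, 16 reached the dry minimum and 13 of those were lost by 6 h in water. Of the 13, 3 were regained there, LEA4-5, LEA18 and LTI65, all members, beside 78 of all 399 genes lost. Without replicate 2, ethylene against water at 16 h called 16 of 19 tested LEA genes lower and 3 higher, where 32.7% of all genes were lower and 42.0% higher, with a median log2 fold change of -4.42 against 0.11 over all genes. With all libraries 2 were lower and 3 higher (18.5% and 31.7% of all genes were). EM1, EM6 and RAB18, other LEA genes, had log2 fold changes of -5.34, -5.70 and -4.95 without replicate 2, while SAG21, ERD10 and COR47 were higher at 2.59, 2.63 and 2.89.

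No gene of the lists of 8 storage protein and 8 oil body genes was a member, and 1 and 2 of them were lost by 6 h. Without replicate 2, 8 of 8 and 7 of 7 tested were lower with ethylene at 16 h (32.7% of all genes were). Their median log2 fold changes were -2.62 and -4.28. With all libraries 4 storage protein genes were lower by edgeR's quasi-likelihood test, and 0 oil body genes, of which 1 passed an unadjusted p under 0.05. Of all genes, 18.5% were lower in that fit.

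Abscisic acid receptors, phosphatases and kinases were called in both directions. Without replicate 2, 10 of 21 tested were lower and 9 higher with ethylene at 16 h (32.7% and 42.0% of all genes were). The median log2 fold change was 0.03 against 0.11 over all genes. With all libraries 6 were lower and 9 higher (18.5% and 31.7% of all genes were). The phosphatase AHG1 was lower at -2.80, and the phosphatase ABI1 and receptor PYL6 were higher at 2.82 and 4.84, without replicate 2. Of 19 response and maturation factors tested, 11 were lower and 7 higher without it, with a median of -0.66. With all libraries 5 of 18 were lower and 4 higher, and the shares over all genes are those just given. ABI5, the factor that AFP proteins bind, was lower at -1.86, and EEL and ABF4, related bZIP factors, were lower at -3.18 and -2.23, without replicate 2. AFP3, another AFP gene, was lost and regained in water but had 7.47 CPM with ethylene against 8.65 in water at 24 h, and was no member.

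For the lists that follow, ethylene against water at 16 h called 32.7% of all genes lower and 42.0% higher without replicate 2. With it the shares were 18.5% and 31.7%. In the raffinose list 3 of 4 tested were lower without replicate 2, among them STS, stachyose synthase, at -3.93. In the list of seed protection genes 6 of 7 were lower and 1 higher without replicate 2, with TSPO at -5.66. The list medians were -3.75 and -4.05. With all libraries 0 genes of either list were lower by edgeR's quasi-likelihood test, with 1 and 0 at an unadjusted p under 0.05. Of genes of abscisic acid synthesis and catabolism, 8 of 10 tested were lower and 2 higher without replicate 2 (median -1.33), and 3 were lower with it. Of gibberellin genes, 3 of 9 were lower and 5 higher in both fits (median 2.05 without replicate 2). The share that was lower was near that of all genes only without replicate 2. Of genes of ethylene perception and response, 2 of 14 were lower and 10 higher without replicate 2 (median 0.92), and 1 was lower and 10 higher with it. Of heat shock genes, 10 of 12 were lower without it (median -2.20) and 4 with it. Of dormancy and germination regulators, 6 of 10 were lower and 2 higher without it (median -0.44), and 5 and 2 with it.

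Markers of other tissues also differed between ethylene and water. At 24 h the 5 leaf photosynthesis markers summed to 502 to 619 CPM in water and 1579.6 to 1739 CPM with ethylene, the opposite direction to the members. At 16 h they summed to 198 to 237 CPM in water and, with ethylene, to 224 CPM in replicate 2 and up to 798 CPM in the others. In dry seeds the sum was 12 to 12.9 CPM, and CA1 was at 0 there and in water at 16 h.

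The 5 endosperm markers summed to 5564 to 5990 CPM in water and 784 to 985 CPM with ethylene at 24 h. At 16 h they summed to 10104 to 11322 CPM in water and, with ethylene, to 10203 CPM in replicate 2 and down to 2213 CPM in the others. The sum was thus lower with ethylene, like the members, but in water it was lower at 24 h than at 16 h. EPR1 made up 5785 CPM of the water mean and 764 CPM of the ethylene mean at 24 h, and NAC25 and ZOU were at 0 in both groups. MAN7 and SUC5 went the other way at 24 h. Their means were 60.9 and 0.765 CPM in water and 86.9 and 9.88 CPM with ethylene, so the lower sum is that of EPR1. With ethylene against water at 16 h, 4 of 4 tested leaf markers were higher in both fits. Of 3 endosperm markers tested, 2 were lower and 1 higher without replicate 2, and 1 was lower and 1 higher with it. Over all genes 32.7% were lower and 42.0% higher without replicate 2, and 18.5% and 31.7% with it. The part of these markers in the members' levels was not tested.

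The stretches before the members' genes often held the ABRE core. ACGTG, on either strand, occurred in 38 of 56 windows of 300 bases (67.9%), against 25.9% of 18742 genes in the fit and 23.5% of all 37878 annotated windows. It occurred in 57.8% of 320 genes that were lost and not regained and 61.9% of the 21 regained with ethylene as well, shares close to that of the members. The G-box CACGTG, which counts as 2 overlapping cores, was in 37.5% of members against 8.41% of genes in the fit, and the longer form ACGTGNC in 50% against 10.8%. LTI65 and LEA18 hold 4 cores each in the lines printed above, and GolS2 and PER1 a single G-box. Members with the core lay mostly close to the gene: 30.4% had it 51 to 100 bases and 32.1% had it 101 to 150 bases before the start, against 7.88% and 5.82% of genes in the fit. A match is a string of letters, not a shown binding site.

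**Figure D5:**
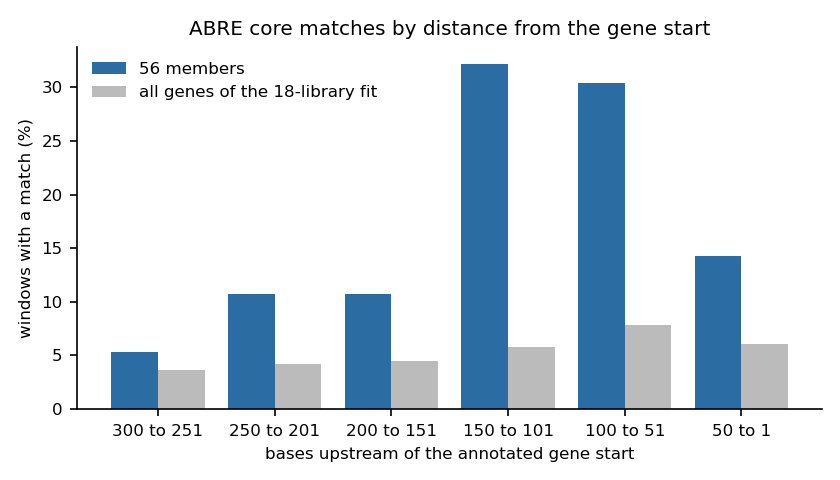
Share of 300-base windows before the gene start with an ABRE core on either strand, in bins of 50 bases by distance from the start, for the 56 members (blue) and all genes of the 18-library fit (grey). The members' bars are highest at 51 to 100 and 101 to 150 bases, 30.4% and 32.1%, where the grey bars are 7.88% and 5.82%.

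Other motifs stood closer to the background. The RY motif CATGCA, recognised by seed factors of the ABI3 type, was in 16.1% of members and 9.15% of genes in the fit. The GCC box GCCGCC, bound by ethylene response factors, was in 1.79% and 2.57%, and ATGTA, found in sites of EIN3, the main ethylene transcription factor, was in 57.1% and 58.0%. TATAAA was in 37.5% and 50.8%. The ABRE core was in 31 of the 42 members that fell with ethylene from 6 to 16 h, in 4 of the 9 that rose and in 3 of the 5 called neither way, without replicate 2.

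The members were shorter genes with fewer exons than most that reached the dry minimum. Their median was 2 exons and 1228 transcript bases, and 55.4% had 1 or 2 exons. Among 5243 annotated genes that reached the dry minimum the median was 6 exons and 1809 bases, and the share 22.0%. All 26127 annotated genes with a count stood closer, with a median of 3 exons and 1565 bases and a share of 40.3%. A single exon was found in 26.8% of members and 24.6% of those 26127. Of the genes lost and not regained, 39.4% had 1 or 2 exons. Of the 21 that kept more than 1/4 of the water level with ethylene at 24 h, 19.0% did. Of the 56, 55 are protein coding and AT1G11175 is a noncoding RNA, 24 carry a symbol, and they lie on all 5 chromosomes, 16 of them on chromosome 1 and 19 on chromosome 5.

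Some members stood close to a limit of the rule. SCPL19 had 20.6 CPM in dry seeds, just inside, and AT4G09589 had 19.6, just outside. AT5G06980 was 4.39 times higher in dry seeds than at 6 h, and NHX3, outside, 3.99 times. MLP31 was regained 4.04 times, and CH1, outside, 3.96 times, followed by LTI78, a neighbour of LTI65, at 3.95 times. PUB9 was 4.25 times higher in water than with ethylene at 24 h, and CGLD27, outside, 3.90 times.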

How the data were processed

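RNA of 21 Arabidopsis thaliana seed libraries, 7 groups of 3, was sequenced after poly(A) selection with a stranded kit, per the labels. The authors deposited whole-number read counts per gene, made with STAR against TAIR10 per the submitters' processing notes; the aligner version is not given in the sources used here. Reverse-strand counts were used, and the summary lines (unmapped 0.209 to 2.04%, multimapping 1.44 to 2.47%, no feature 0.752 to 2.78%, ambiguous 0.0776 to 0.166%) were left out. CPM are counts over gene reads. The 18 imbibed libraries were fitted together with edgeR 4.0.16 (R 4.3.3; TMM, quasi-likelihood test, genes kept by expression at a minimum count of 10 and total of 15, Benjamini-Hochberg threshold 0.05), and again without the library labelled ethylene 16 h replicate 2, a choice made after seeing the data. The fit was also run on data simulated with an equal spread for all genes and no library that stood apart. Those runs do not bear on leaving that library out. DESeq2 1.42.0 was an alternative, as were other scalings, no filter, other thresholds, counts of either strand, the compared groups alone, a replicate block and leaving out each replicate. SE is the log2 fold change over the square root of F.

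Genes named were drawn by a rule, and not every gene that the rule gives is named. The rule took the 8 members highest in CPM at 24 h in water, the 8 with the highest ratio of water to ethylene there and up to 4 per pathway list. It also took the 6 largest decreases and the increases at 16 h, and the 4 largest changes at 6 h and in the change of effect. Last came the 4 highest and 4 lowest ratios of water at 16 h to 24 h, and the 3 nearest each limit. Other genes named were chosen after their values were seen. Members and lists were chosen with earlier results of these data known. 1 gene that met the thresholds is not reported here. Gene starts, products and sequences are from RefSeq TAIR10.1; the deposited counts carry no coordinates.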

Additional observations from a re-analysis of the deposited data

Results flagged for a closer look

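The effect of ethylene differed between 16 and 6 h of imbibition in 54 of the 56 members by edgeR's quasi-likelihood test of the difference itself once replicate 2 of ethylene 16 h, which resembles water, was left out. In the fit of all 18 libraries it was called in 0 of them, with 1 at an unadjusted p under 0.05 and 0 by DESeq2. The most negative changes of the effect on the log2 scale were -7.11 in AT5G53260, -5.81 in GolS2, -5.73 in NSP2 and -5.43 in AT3G21380, all without that library. The value for AT5G53260 rests on 1 read in each of the 2 remaining ethylene 16 h libraries. The 6 h water libraries also entered the choice of members.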

How the results depend on the processing

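The count of members was 119 with ratios of 3, 35 with ratios of 5 and 98 on TMM-scaled CPM, and 55 to 59 with 1 library left out. Members lower with ethylene than water at 16 h numbered 7 with all libraries, 11 by DESeq2, 19 with a replicate block, 0 at an FDR of 0.01, 0 in the compared groups alone and 0 to 56 with 1 library left out; 56 was reached without the library labelled ethylene 16 h replicate 2. From 6 to 16 h with ethylene, the leave-out ranges were 0 to 42 lower and 9 to 37 higher, and 11 were higher at an FDR of 0.01 and 8 in the compared groups alone. At 6 h, 41 were lower and 1 higher in the compared groups alone, with leave-out ranges of 0 to 41 and 0 to 1; the change of effect was called in 0 to 54. Further settings without that library, chosen after seeing the data, were the replicate block, DESeq2, library size and an FDR of 0.01, in that order: 56 in each at 16 h, then 42, 42, 41 and 40 lower and 9, 9, 11 and 9 higher from 6 to 16 h, 39, 38, 41 and 33 lower at 6 h with 1 higher in the first 3, and 54, 54, 53 and 54 for the change of effect. From 6 to 16 h with ethylene, the log2 fold change turned negative without that library in LTI65, GolS2, GASA3, PER1 and LEA18, with leave-out ranges of -2.95 to 1.58, -4.28 to 1.08, -2.83 to 1.59, -1.31 to 1.82 and -1.05 to 1.63, and in GolS2 with a replicate block (-0.17). The change of effect in AFP2 turned negative in 4 leave-out fits (range -0.46 to 0.25). Deviations from group means correlated at -0.337 to 0.373, median -0.00368, between same-numbered libraries. Between differently numbered ones the range was -0.397 to 0.382, median 0.00417. Equal numbers thus went with no closer libraries, which does not show whether samples were paired by design. The cause of these shifts was not tested. Depth limits AT5G53260, HAI1, FD4, SWEET6 and AT2G27940, which had at most 3 reads over the 3 ethylene 24 h libraries.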

Other observations

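3 members had over 10% of their reads on the strand opposite to the one counted: AT2G27940 with 65.1%, ATCTH with 17% and AT2G18540 with 10.9%. In AT2G27940 the opposite strand had 70.6 to 78.5 CPM in dry seeds, 1.46 to 2.13 CPM at 6 h and 5.98 to 8.81 CPM at 24 h in water, and 0.0472 to 0.0503 CPM at 24 h with ethylene, so reads of both strands were low at 6 h in water and at 24 h with ethylene. AT5G42290 overlaps UBL5 on the opposite strand by 619 bases.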
